A study of Mus musculus with 40 samples.

Results

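Acod1 and 8 enzymes of the TCA cycle and its branches (Cs, Aco1, Idh1, Idh2, Idh3a, Ogdh, Fh1 and Mdh2) were followed in mouse bone marrow-derived macrophages (BMDMs). The 9 genes were taken from the 43430 genes of the count table by matching their Ensembl identifiers to these symbols. All 9 were among the 11853 genes with enough counts to be tested, and in every library each had at least 91 counts.

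RNA-seq was performed on BMDMs of 10 mice, 5 WT and 5 NDI1, which are macrophages grown in culture from bone marrow. Both genotypes carried Vav-iCre, a Cre recombinase driven in hematopoietic cells, and NDI1 mice also carried a lox-stop-lox NDI1 transgene at the Rosa26 locus. NDI1 is a yeast NADH dehydrogenase that is insensitive to piericidin A. Piericidin A blocks complex I of the respiratory chain. The mice were adult littermates of both sexes on a mixed C57Bl/6J and C57Bl/6N background. From every mouse there was 1 library of cells without agents, 1 with LPS at 100 ng/ml for 4 h, 1 with piericidin A at 500 nM, and 1 that received the same dose of piericidin A 30 min ahead of LPS. LPS is a bacterial outer membrane component that activates macrophages. Each of the 8 groups held 5 libraries, 1 per mouse, and the 4 libraries of a mouse share that mouse.

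Library totals lay between 6950748 and 13552070 counts. All 8 macrophage markers were detected in every library, at a summed 19674 to 38691 CPM (CPM, read counts scaled by TMM-adjusted library size), of which Lyz2 held 12943 CPM or more, while Mertk and Fcgr1 went down to 54.7 and 99.4 CPM. Of the lists for other cell types, the summed T cell, mast cell and erythroid markers stayed at 3.54 CPM or less and those of B cells, dendritic cells and stroma at 11.6, 31.5 and 109.7 CPM or less, while the summed neutrophil markers ranged from 11.9 to 2646 CPM.

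The TCA cycle oxidizes acetyl-CoA in the mitochondrial matrix and passes electrons to the respiratory chain as NADH and as the reduced flavin of succinate dehydrogenase. Activated macrophages are known to make itaconate, which ACOD1 produces by decarboxylating cis-aconitate, the intermediate of the aconitase reaction. Itaconate inhibits succinate dehydrogenase and was described in macrophages as an antimicrobial and immunoregulatory metabolite. Complex I takes electrons from the NADH that the isocitrate, 2-oxoglutarate and malate dehydrogenases of the cycle make.

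Positions are those of the deposited table on mm10. Acod1 (ENSMUSG00000022126) lies at chr14:103046977-103056573 on the plus strand, Cs (ENSMUSG00000005683) at chr10:128337832-128362479 on the plus strand and Aco1 (ENSMUSG00000028405) at chr4:40143081-40198338 on the plus strand. Idh1 (ENSMUSG00000025950) lies at chr1:65158616-65186500 and Idh2 (ENSMUSG00000030541) at chr7:80094846-80115392, both on the minus strand. Idh3a (ENSMUSG00000032279) lies at chr9:54586511-54604661 and Ogdh (ENSMUSG00000020456) at chr11:6291633-6356642, both on the plus strand. Fh1 (ENSMUSG00000026526) lies at chr1:175600374-175625635 on the minus strand and Mdh2 (ENSMUSG00000019179) at chr5:135778480-135790398 on the plus strand. Fh1 overlaps 1 gene on the opposite strand, which had 1437 counts over all libraries against 16015 for Fh1, and Cs overlaps 1 gene with 0 counts. These values are exonic read counts over whole genes, so they do not separate transcripts of a gene.

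The sequence upstream of the gene start is shown for the member with the widest range of levels (Acod1), for the member with the widest fall after LPS (Idh1) and for the sole member with a match to one of the searched motifs (Idh2). The sequences are from RefSeq on GRCm38.p6, the build of mm10, and are written 5′ to 3′ on the strand of the gene. Capitals mark the match to the NF-kB motif, which lies on the opposite strand of the sequence shown.
Acod1, chr14:103046762-103046976, plus strand: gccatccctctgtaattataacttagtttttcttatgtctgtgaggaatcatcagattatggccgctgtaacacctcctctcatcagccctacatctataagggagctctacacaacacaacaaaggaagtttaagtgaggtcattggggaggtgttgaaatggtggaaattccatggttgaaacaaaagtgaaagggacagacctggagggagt
Idh1, chr1:65186501-65186729, minus strand: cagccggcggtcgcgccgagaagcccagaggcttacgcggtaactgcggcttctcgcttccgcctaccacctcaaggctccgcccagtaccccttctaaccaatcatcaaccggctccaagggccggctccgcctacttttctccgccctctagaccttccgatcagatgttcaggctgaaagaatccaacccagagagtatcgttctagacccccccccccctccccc
Idh2, chr7:80115393-80115600, minus strand: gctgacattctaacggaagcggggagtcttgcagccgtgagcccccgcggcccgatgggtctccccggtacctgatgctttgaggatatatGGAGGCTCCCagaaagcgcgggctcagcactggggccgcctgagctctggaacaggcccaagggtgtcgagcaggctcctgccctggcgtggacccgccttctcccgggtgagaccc

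The 250 bases before the RefSeq start of 8 of the 9 members were searched on both strands for 10 motifs, and a sequence for Idh3a was not used here. The motif named NF-kB was found 1 time, in Idh2, with its first base at −159 from the RefSeq start, and 7.25% of 32851 mouse promoters hold it. None of the 8 windows held the interferon-stimulated response element (in 2.98% of promoters), AP-1 (TGANTCA, 6.75%), C/EBP (TTGCNNAA, 9.56%), the STAT element (TTCNNNGAA, 7.02%) or the ATF4 with C/EBP motif (TGATGNAA, 3.45%). The sterol element of SREBP (TCACNCCA, 3.67%), NRF1 (3.74%), the estrogen-related receptor motif (TCAAGGTCA, 0.387%) and the antioxidant element of NRF2 (TGACNNNGC, 10.2%) had no match either. A motif without a match says only that these letters are not in these windows.

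Compared per length of exon sequence, the members of untreated WT BMDMs ran from 91.1 ± 6.14 RPKM for Idh1 down to 3.62 ± 0.810 RPKM for Idh3a (SD, n = 5). Acod1 stood at 73.5 ± 49.7 RPKM in the same cells. Ogdh (31.6 ± 3.92), Mdh2 (26.0 ± 2.79) and Cs (21.8 ± 2.65) lay between these ends, as did Aco1 (16.6 ± 0.715), Idh2 (14.8 ± 1.49) and Fh1 (11.0 ± 2.05). With LPS alone, Acod1 reached 4164 ± 576 RPKM in WT and took 0.757% to 0.923% of all counts, and it ranked 8 of the 11802 tested genes with a length. Idh1, at 42.0 ± 4.96 RPKM, was then the next member in order, far under Acod1.

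The effect of LPS was compared first. In WT BMDMs, Acod1 and Cs rose, Aco1 and Idh1 fell, and the other 5 members did not pass the test. In NDI1 BMDMs the same 4 genes passed in the same directions and Idh2 fell as well. Over all tested genes, 31.5% rose and 31.0% fell in WT, and 31.5% rose and 31.2% fell in NDI1, so the members called in a direction, 2 or 3 of 9, made up a share near or below that background.

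These directions are relative to the typical gene, because TMM scaling sets the middle of all genes to about no change. The TMM factors were 0.696 to 0.899 in the 20 libraries with LPS and 1.13 to 1.37 in the 20 without it. On total counts without these factors, the median of all genes was at −0.78 (log2) with LPS in WT and at −0.77 in NDI1. The split of calls then moved from 3738 genes higher and 3673 lower to 1732 higher and 7864 lower in WT, and from 3731 and 3703 to 1734 and 7840 in NDI1. On that scale, all 9 members were called in each genotype, and Acod1 was the sole member that rose.

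Acod1 in untreated WT BMDMs was at 40.0, 282, 131, 144 and 367 CPM in mice 449, 452, 453, 496 and 520. With LPS, the same mice were at 11784, 12143, 8637, 11935 and 10112 CPM. Every WT library with LPS stood above every library without it, and the 9.18-fold range between untreated mice became a 1.41-fold range with LPS. In untreated NDI1 BMDMs, Acod1 was at 272, 221, 29.7, 299.6 and 352 CPM in mice 447, 460, 461, 503 and 521, and with LPS at 11057, 12096, 11498, 11759.7 and 9995 CPM.

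The log2 fold change of Acod1 with LPS was 5.82 ± 0.63 (SE) in WT (56.6-fold, edgeR adjusted p = 3.83e-10). In NDI1 it was 5.59 ± 0.62 (48.0-fold, edgeR adjusted p = 7.99e-10). On total counts without scaling factors these changes were 5.04 and 4.82. Within mice, the log2 difference ran from 4.78 to 8.19 in WT and from 4.83 to 8.59 in NDI1, and it was widest in mice 449 and 461, whose untreated cells held the least Acod1. With LPS, both mice lay within the range of the other mice of their genotype. The difference of the LPS effect between genotypes was −0.24 ± 0.73 (edgeR adjusted p = 1.000).

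**Figure D1:**
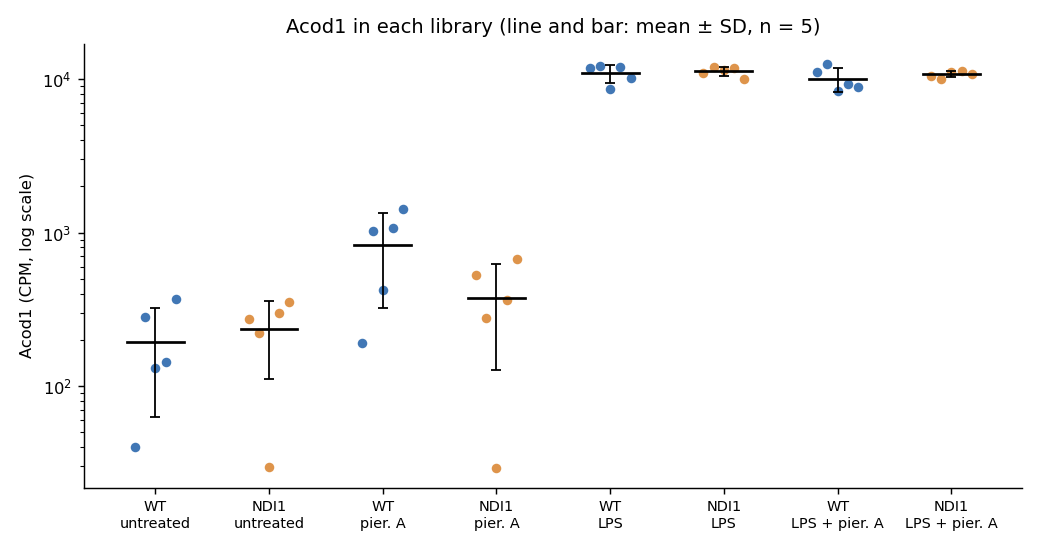
Acod1 in CPM on a log scale in the 8 groups, WT in blue and NDI1 in orange, with 1 point per library in the order of the mouse numbers and black lines for the mean ± SD (n = 5). The 20 libraries with LPS lie between 8378 and 12539 CPM, above all 20 without LPS, and mouse 461 is lowest in both NDI1 groups without LPS, at 29.7 and 29.3 CPM.

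Cs encodes citrate synthase, which makes citrate from oxaloacetate and acetyl-CoA. In WT, its level was 106, 133, 147, 124 and 120.3 CPM untreated and 159, 173, 190.4, 192 and 161 CPM with LPS. The lowest library with LPS stood above the highest without it. Cs rose by 0.48 ± 0.09 on the log2 scale in WT (edgeR adjusted p = 2.67e-05) and by 0.51 ± 0.09 in NDI1 (edgeR adjusted p = 1.13e-05), and the direction flipped to −0.30 and −0.27 on total counts, where Cs still lay 0.49 and 0.51 above the median gene. In NDI1, the untreated libraries were at 117 to 139 CPM and those with LPS at 161 to 190.1 CPM.

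Aco1 encodes the cytosolic aconitase, which interconverts citrate and isocitrate and, without its iron-sulfur cluster, binds RNA as iron regulatory protein. In WT it was at 75.9, 75.3, 78.4, 74.6 and 69.6 CPM untreated and at 43.2, 47.2, 55.1, 36.1 and 43.5 CPM with LPS. The groups did not overlap. Aco1 fell by 0.73 ± 0.12 on the log2 scale in WT (edgeR adjusted p = 1.86e-06) and by 0.71 ± 0.12 in NDI1 (edgeR adjusted p = 3.10e-06).

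Idh1 encodes the cytosolic isocitrate dehydrogenase that makes 2-oxoglutarate and NADPH. Its WT libraries held 259, 275, 234, 237 and 257 CPM untreated and 111, 109, 101, 125 and 136 CPM with LPS. In NDI1, it was at 259.5, 247, 319.7, 233 and 267 CPM untreated and 104, 82.3, 119.8, 119 and 149 CPM with LPS. The libraries with LPS lay below all the untreated ones in both genotypes. Idh1 fell by 1.12 ± 0.17 on the log2 scale in WT (edgeR adjusted p = 5.84e-07) and by 1.21 ± 0.17 in NDI1 (edgeR adjusted p = 1.38e-07).

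Idh2 encodes the mitochondrial NADPH-producing isocitrate dehydrogenase. In WT it was at 35.2, 41.1, 37.2, 43.2 and 34.3 CPM untreated and at 28.2, 30.4, 32.5, 39.2 and 25.1 CPM with LPS, and the groups overlapped. In NDI1 it was at 33.9, 33.5, 40.5, 42.5 and 34.8 CPM untreated and at 30.1, 29.3, 25.7, 34.4 and 29.0 CPM with LPS, with a small overlap. The log2 change was −0.30 ± 0.13 in WT (edgeR adjusted p = 0.0518) and −0.32 ± 0.13 in NDI1 (edgeR adjusted p = 0.0366). Idh2 was lower with LPS in 5 of 5 mice of each genotype. With the mouse as a block both changes passed (edgeR adjusted p = 0.00170 in WT and 0.00132 in NDI1), while leaving out mouse 461 took the NDI1 change to −0.24 (edgeR adjusted p = 0.191). Without any one of the other NDI1 mice its adjusted p by edgeR was 0.0515 to 0.0575. In WT the change passed without mouse 496 (edgeR adjusted p = 0.0203) and with DESeq2 (adjusted p = 0.0400).

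Idh3a (the catalytic subunit of the NAD-dependent isocitrate dehydrogenase), Ogdh (the first subunit of the 2-oxoglutarate dehydrogenase complex), Fh1 (fumarase) and Mdh2 (mitochondrial malate dehydrogenase) did not pass the test with LPS. Their log2 changes in WT were −0.03 ± 0.16, −0.06 ± 0.11, −0.24 ± 0.19 and 0.11 ± 0.10. In NDI1 they were −0.12 ± 0.16, −0.04 ± 0.11, −0.23 ± 0.19 and 0.22 ± 0.10, and those of Mdh2 flipped to −0.66 and −0.55 on total counts. Ogdh had the flattest profile, with group means of 165 to 174 CPM over all 8 groups. With the mouse as a block, Fh1 passed in both genotypes (−0.25, edgeR adjusted p = 0.0112 in WT, and −0.23, edgeR adjusted p = 0.0172 in NDI1) and Mdh2 passed in NDI1 (0.22, edgeR adjusted p = 0.00444, but −0.55 on total counts). In that fit 72.0% of all genes were called in WT and 72.4% in NDI1.

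**Figure D2:**
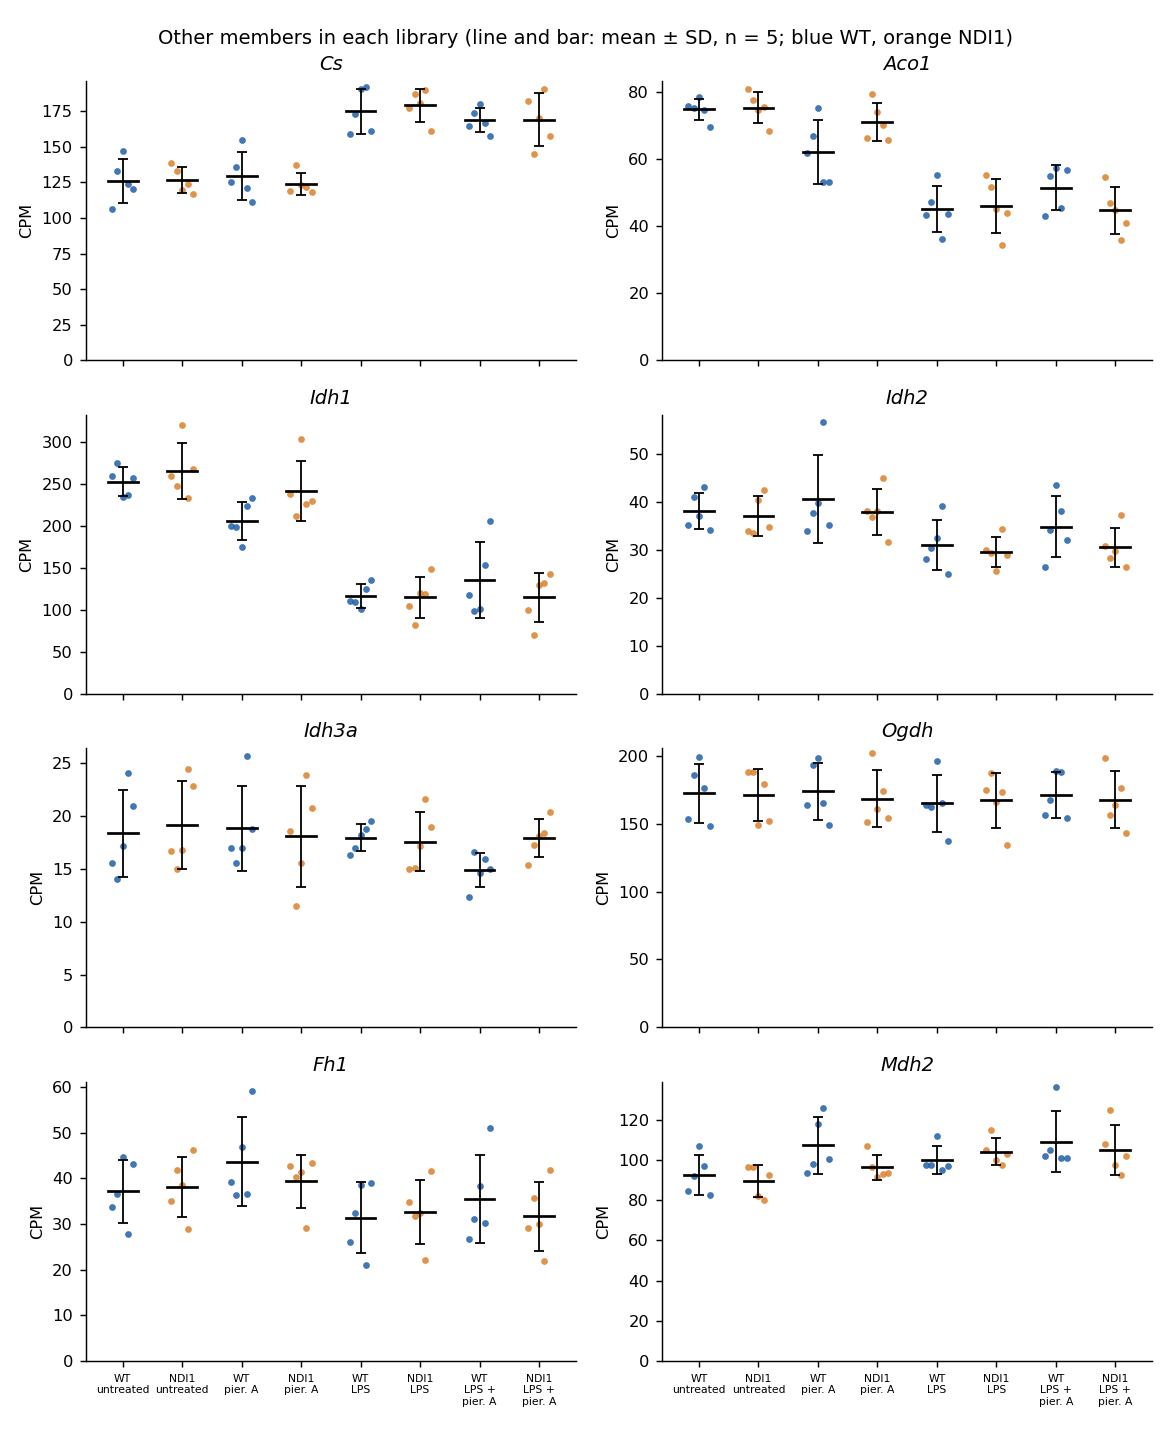
CPM of the other 8 members in the 8 groups, each panel starting at 0, with 1 point per library and black lines for the mean ± SD (n = 5), WT in blue and NDI1 in orange. Cs is higher and Aco1 and Idh1 are lower in the groups with LPS, while Ogdh keeps group means of 165 to 174 CPM.

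The question of what complex I inhibition does to these genes without LPS was addressed by piericidin A alone. In WT BMDMs, Acod1 rose and none of the other 8 members passed. Of all tested genes, 7.79% rose and 7.05% fell (923 and 836 genes, or 503 and 1708 on total counts, where the median gene was at −0.13). In NDI1 BMDMs none of the 9 members passed, and 0% of the tested genes were called by edgeR or DESeq2, with 58 genes and no member at an unadjusted p under 0.05.

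With piericidin A, Acod1 in WT was at 189.5, 1018, 424, 1074 and 1429.5 CPM in mice 449, 452, 453, 496 and 520. All 5 mice were higher than in their own untreated cells, although the groups overlapped because the untreated levels differed between mice. In NDI1, Acod1 was at 531, 276, 29.3, 362 and 675 CPM in mice 447, 460, 461, 503 and 521.

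The log2 fold change of Acod1 with piericidin A was 2.10 ± 0.53 in WT (4.29-fold, edgeR adjusted p = 0.00664). The rise passed in 16 of 17 other settings, with the mouse as a block at 2.11 (edgeR adjusted p = 0.000922). Without mouse 496 it was 1.90 (edgeR adjusted p = 0.0579). The NDI1 change was 0.67 ± 0.52 (edgeR adjusted p = 1.00). The level with piericidin A alone in WT was far under that with LPS, at a mean of 827 ± 507 CPM against 10922 ± 1511 CPM (SD, n = 5).

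Within mice, the log2 differences were 2.24, 1.85, 1.69, 2.90 and 1.96 in WT and 0.97, 0.32, −0.02, 0.27 and 0.94 in NDI1, so that the 2 genotypes did not overlap. Acod1 was the sole member without overlap, and 11.4% of all tested genes had none. The means within mice were 2.13 ± 0.474 in WT and 0.497 ± 0.437 in NDI1 (SD, n = 5). The difference between the genotypes' effects was −1.43 ± 0.73 and did not pass the test (edgeR adjusted p = 0.475, and 0.154 with the mouse as a block). The SE of this difference is from the fit without the block, where the spread between mice enters it. For this difference 1.27% of all genes were called (20 higher and 130 lower in NDI1, or 48 and 98 on total counts, where the median gene was at 0.12), and no member.

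The summed neutrophil markers moved in the same libraries, from 21.2 to 436 CPM in untreated WT to 27.9 to 1452 CPM with piericidin A, and from 11.9 to 416 CPM to 17.9 to 529.9 CPM in NDI1. S100a8, S100a9 and Ngp had log2 changes of 1.51 ± 1.13, 1.53 ± 1.16 and 1.35 ± 1.30 in WT, and none of the 6 tested markers passed. With the mouse as a block, however, 4 of the 6 rose in WT, S100a8 by 0.85 (edgeR adjusted p = 0.00504), S100a9 by 0.78 (0.00805), Ngp by 0.64 (0.00558) and Camp by 1.23 (0.00528), and 0 of 6 passed in NDI1. That fit called 34.2% of all genes with piericidin A in WT. In the same fit, 4 of 6 also rose with LPS in each genotype, where 72.0% (WT) and 72.4% (NDI1) of all genes were called. With piericidin A under LPS in WT 5 of 6 rose, where 34.5% of all genes were called. Markers of other cells moved with LPS as well. Xcr1, a dendritic cell receptor, rose in WT (4.03 ± 0.34, edgeR adjusted p = 9.98e-13) and NDI1 (3.32 ± 0.34, edgeR adjusted p = 6.94e-11), as did Pdgfrb, a receptor of stromal cells (2.83 ± 0.62, edgeR adjusted p = 0.000138, and 3.67 ± 0.63, edgeR adjusted p = 4.57e-06). These 2 were the calls among the 3 B cell, 4 dendritic and 4 stromal markers tested, of which the block called 2, 2 and 2 rises with LPS in WT, and 0, 1 and 1 rises and 1 fall of a dendritic marker in NDI1. Of the 8 macrophage markers, 3 rose and 1 fell with LPS in WT and 4 rose and 1 fell in NDI1, against 2 and 4 in WT and 2 and 5 in NDI1 on total counts. With the block, 6 rose and 1 fell in WT and 5 rose and 1 fell in NDI1. Without it, 31.5% of all genes rose in each genotype and 31.0% and 31.2% fell. Ly6g, a defining marker, stayed at 2.02 CPM or less in all libraries. The part of any of these cells in the Acod1 results was not tested. In bulk RNA, more cells of a type and more RNA per cell cannot be told apart.

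**Figure D3:**
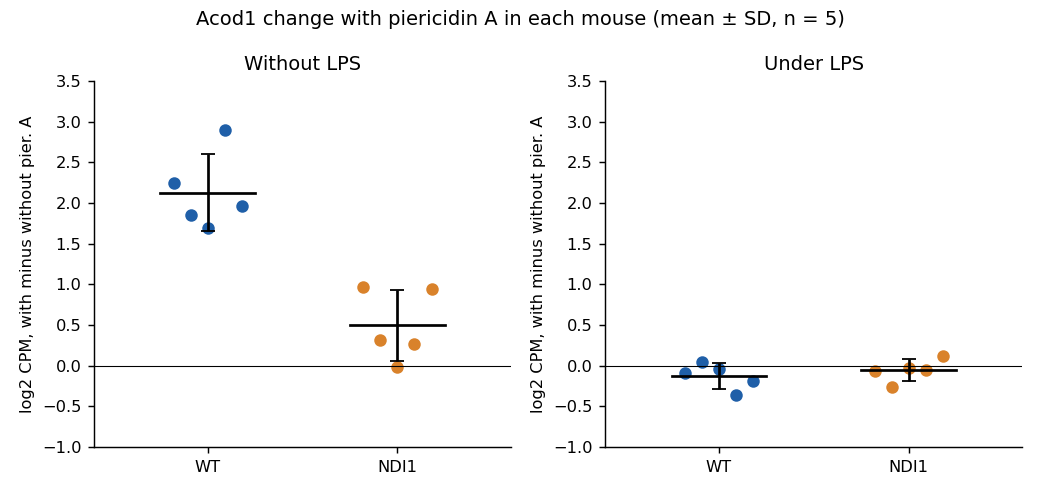
Change of Acod1 with piericidin A within each mouse, as the difference of log2 CPM with and without the inhibitor, in cells without LPS (left) and with LPS (right), with 1 point per mouse and black lines for the mean ± SD (n = 5). Without LPS the WT mice lie between 1.69 and 2.90 and the NDI1 mice between −0.02 and 0.97, and under LPS all mice lie between −0.36 and 0.12.

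Among the other members, the changes with piericidin A in WT were between −0.29 and 0.23 (log2). Aco1 was at 61.9, 66.7, 75.3, 53.2 and 53.2 CPM, lower than untreated in 5 of 5 mice (−0.27 ± 0.12, edgeR adjusted p = 0.124). Idh1 was at 199.6, 199, 175, 223 and 233 CPM, also lower in 5 of 5 mice (−0.29 ± 0.17, edgeR adjusted p = 0.254). Mdh2 was higher in 5 of 5 mice (0.21 ± 0.10, edgeR adjusted p = 0.144). In NDI1, Idh1 was likewise lower (−0.14 ± 0.17) and Mdh2 higher (0.11 ± 0.10) in 5 of 5 mice, and Aco1 lower in 4 of 5, with edgeR adjusted p = 1.00 for Idh1 and Mdh2. With the mouse as a block, Aco1 (−0.28, edgeR adjusted p = 0.0133), Idh1 (−0.31, edgeR adjusted p = 0.0454), Fh1 (0.23, edgeR adjusted p = 0.0373) and Mdh2 (0.21, edgeR adjusted p = 0.0134) passed, and 34.2% of all genes were called in that fit.

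Under LPS, piericidin A left no member past the test in either genotype. In WT, 7.81% of all genes rose and 8.92% fell (926 and 1057 genes, or 1006 and 705 on total counts), and none of the 9 members had an unadjusted p under 0.05. In NDI1, 0% of the tested genes were called by edgeR or DESeq2, with 127 genes and no member at an unadjusted p under 0.05.

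Acod1 in WT with both agents was at 11108, 12539, 8378, 9305 and 8888 CPM, overlapping the range with LPS alone, and its log2 change was −0.12 ± 0.51 (edgeR adjusted p = 0.898). In NDI1 it was at 10567, 10091, 11225, 11379 and 10830.4 CPM (−0.06 ± 0.51, edgeR adjusted p = 1.000). The change within mice ran from −0.36 to 0.05 in WT (mean −0.126, SD 0.155) and from −0.26 to 0.12 in NDI1 (mean −0.0586, SD 0.135). The fit uses 1 dispersion per gene over all groups, so the SE of 0.51 also reflects the wider spread of Acod1 without LPS.

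Of the other members in WT, Idh3a had the widest change, at 12.3, 16.6, 14.6, 15.9 and 15.0 CPM with both agents against 16.3, 17.0, 18.2, 18.8 and 19.5 CPM with LPS alone. Idh3a was lower in 5 of 5 mice (−0.27 ± 0.17, edgeR adjusted p = 0.285, and 0.0694 with the mouse as a block). Mdh2 was higher in 5 of 5 mice (0.13 ± 0.10, edgeR adjusted p = 0.395). Idh1 in mouse 520 was at 206 CPM, against 98.8 to 153 CPM in the other WT mice with both agents. The difference between the genotypes in the effect under LPS passed for no member, with 0.979% of all genes called.

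**Figure D4:**
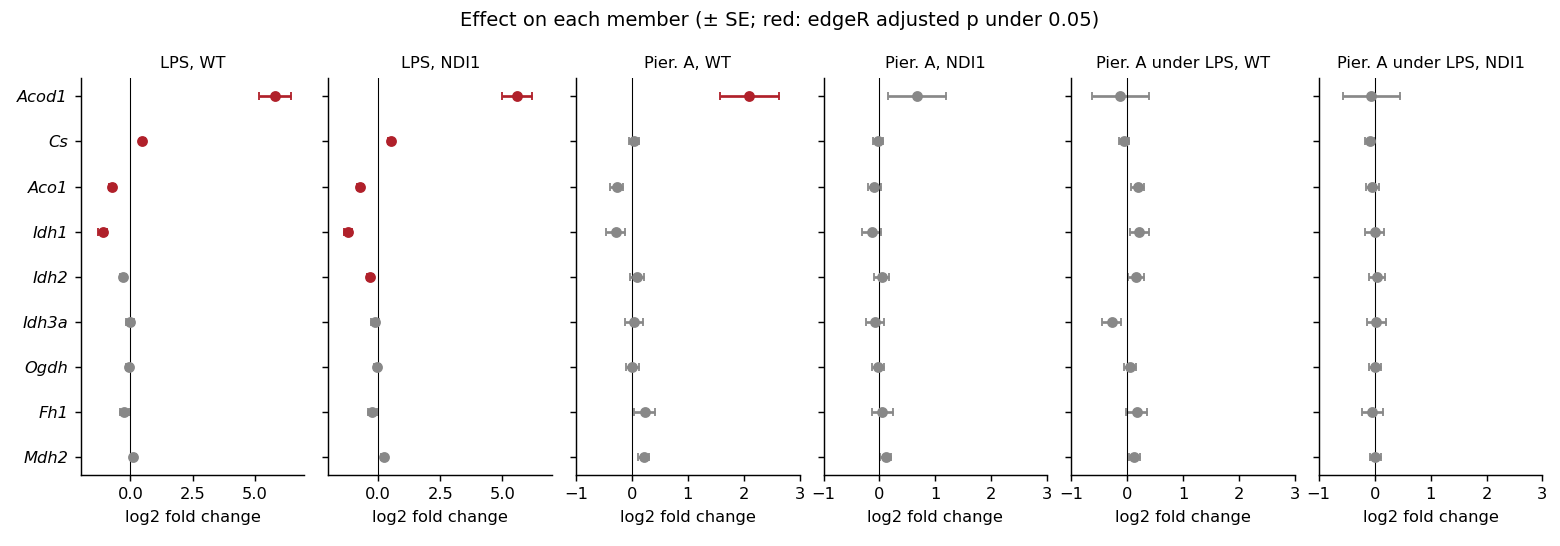
Log2 fold change ± SE of the 9 members in 6 comparisons, with genes past the edgeR adjusted p of 0.05 in red and the others in grey. The LPS panels have a wider axis than the others. Acod1 changes by 5.82 and 5.59 with LPS and by 2.10 with piericidin A in WT, and no member is red for piericidin A in NDI1 or under LPS.

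Whether piericidin A altered the response to LPS was tested as an interaction, which draws on the libraries of the comparisons above. In WT, LPS raised Acod1 by 2.64 to 5.87 (log2, within mice) in the presence of piericidin A, against 4.78 to 8.19 without it. This change was −2.22 ± 0.73 (edgeR adjusted p = 0.0718). It equals the piericidin A effect under LPS (−0.12) less that without LPS (2.10), both given above. Mean levels with LPS were 10922 CPM without piericidin A and 10044 CPM with it. The value thus mostly restates the rise without LPS and is not a separate result. The Acod1 change passed with the mouse as a block (edgeR adjusted p = 0.0167) and with DESeq2 (adjusted p = 0.0450), and its adjusted p was 0.321 without mouse 496. It also passed without mouse 461 (−2.22, edgeR adjusted p = 0.0143), an NDI1 mouse with no library in this contrast. Of all genes, 4.75% were called (307 higher and 256 lower, or 557 and 141 on total counts, where the median gene was at 0.16), with no member among them.

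With the block, 17.4% of all genes were called, and 3 of the 9 members: Acod1, Aco1 (0.48, edgeR adjusted p = 0.00880) and Idh1 (0.50, edgeR adjusted p = 0.0423). In NDI1 the Acod1 value was −0.74 ± 0.73 (edgeR adjusted p = 1.000), no member passed, and 0% of all genes were called. The LPS effect also passed for no member as a difference between genotypes, again with 0% of all genes called.

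NDI1 and WT BMDMs were compared under each treatment. Untreated and with LPS alone no member differed, and 0% of all genes were called by edgeR or DESeq2. There 39 and 141 genes, and no member, had an unadjusted p under 0.05. With piericidin A alone 7.80% of all genes were called (413 higher and 511 lower in NDI1, or 1010 and 380 on total counts, where the median gene was at 0.12), and with both agents 12.0%, and no member in either. Acod1 had the widest of these differences, −1.14 ± 0.52 with piericidin A alone (edgeR adjusted p = 0.184). Without mice 449 and 461, the lowest untreated mouse of each genotype, chosen after the data were seen, it was −1.10 (edgeR adjusted p = 0.0342). The other 8 members differed by at most 0.229 (log2) with piericidin A alone and 0.265 with both agents.

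By group mean, the order of Acod1 was NDI1 with LPS, WT with LPS, NDI1 with both, WT with both, WT with piericidin A, NDI1 with piericidin A, NDI1 untreated and WT untreated. Neighbours in this order overlapped except between WT with both agents and WT with piericidin A. For Cs, with group means of 169 to 179 CPM with LPS and 124 to 129 CPM without, the one gap between neighbours was also between WT with both agents (158 CPM or more) and WT with piericidin A (155 CPM or less), but NDI1 with both went down to 145 CPM, below the highest libraries of WT untreated and WT with piericidin A. Neighbours overlapped throughout the orders of the other 7 members.

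Among the 11853 genes, those whose log2 CPM followed Acod1 most closely over the 40 libraries were Clec4e (Pearson r = 0.990), Nfkbie (0.985), Nlrp3 (0.982), Traf1 (0.980) and Ehd1 (0.980). Nlrp3 encodes the sensor of the NLRP3 inflammasome and Nfkbie an inhibitor of NF-kB. Aco1 was nearest to Ube4b (0.959) and Rcan3 (0.952), Cs to Ap2b1 (0.944) and Ptbp1 (0.943), and Idh1 to Slc40a1 (0.937), which encodes the iron exporter ferroportin, and Kdelc2 (0.933). Fh1 was nearest to Akr1b8 (0.885) and Sars (0.878), Idh2 to Cotl1 (0.894) and Myl12b (0.841), and Mdh2 to Rplp1 (0.846) and Atp6v0e (0.835). Ogdh and Idh3a had weaker partners, Tpp1 (0.799) and Gaa (0.774) for Ogdh and Paip1 (0.774) and Set (0.761) for Idh3a. These values describe 40 libraries that share mice and treatments.

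The rest of the pathway was described by 48 other genes in 5 lists, of which 45 were tested. With LPS, 9 rose and 12 fell in WT, and 10 rose and 11 fell in NDI1, with medians of −0.06 and −0.05 (log2) against −0.01 for all genes, of which 31.5% rose in each genotype and 31.0% and 31.2% fell. On total counts the split was 2 higher and 36 lower in WT and 2 and 37 in NDI1, and with the mouse as a block it was 12 and 14 in WT and 11 and 18 in NDI1. With piericidin A alone in WT, 6 rose and 1 fell (7.79% and 7.05% of all genes), against 2 and 4 on total counts and 14 and 4 with the block, which called 34.2% of all genes. With piericidin A under LPS in WT, 7 rose and 3 fell (7.81% and 8.92% of all genes), against 6 and 2 on total counts and 10 and 4 with the block, which called 34.5% of all genes. None of the 45 passed for either effect of piericidin A in NDI1, with or without the block.

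Of the 12 other TCA cycle genes, 4 rose and none fell with LPS in each genotype by edgeR, and all 12 were tested. On total counts none rose and 10 fell in each genotype, so that the rises depend on the scaling, and 4 of 12 is close to the 31.5% of all genes that rose. With the mouse as a block, 4 rose in each genotype and 4 fell in NDI1, where 72.0% (WT) and 72.4% (NDI1) of all genes were called. With piericidin A alone in WT the rises went from 1 to 6 with the block, which called 34.2% of all genes. In WT, Dld (the dihydrolipoamide dehydrogenase shared by the 2-oxo acid dehydrogenase complexes) changed by 0.75 ± 0.11 and Dlst (the succinyltransferase of the same complex as Ogdh) by 0.53 ± 0.09. Sdhc, a membrane subunit of succinate dehydrogenase that was chosen after its values were seen, changed by 0.24 ± 0.09. On total counts these 3 flipped in WT, to −0.03, −0.25 and −0.53 for Dld, Dlst and Sdhc. Idh3b, a partner subunit of Idh3a, rose with piericidin A in WT without LPS (0.46 ± 0.15, edgeR adjusted p = 0.0344) and under LPS (0.43 ± 0.15, edgeR adjusted p = 0.0462). Idh3g, the remaining subunit, rose under LPS (0.41 ± 0.12, edgeR adjusted p = 0.0166). These 3 calls held in 9, 5 and 13 of 17 other settings, and on total counts, which are not among the 17, only that of Idh3g did (adjusted p = 0.222 and 0.0626 for Idh3b).

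Of the pyruvate entry genes, 12 of 13 were tested. With LPS, 2 rose and 2 fell in WT and 2 rose and 1 fell in NDI1, where 31.5% of all genes rose and 31.0% and 31.2% fell. On total counts 1 rose and 10 fell in each genotype, so at most 1 of the 2 rises held there. With the mouse as a block, 3 rose and 3 fell in WT and 3 rose and 2 fell in NDI1, where 72.0% and 72.4% of all genes were called. Pdk2, a kinase that inhibits pyruvate dehydrogenase, fell with LPS from 11.3 ± 2.30 to 1.51 ± 0.948 CPM in WT (SD, n = 5), a log2 change of −2.86 ± 0.36. Its relative Pdk3 rose (1.71 ± 0.18), as did Mpc1, a subunit of the mitochondrial pyruvate carrier (0.83 ± 0.12 in WT, with 0.71 in NDI1 flipping to −0.06 on total counts), and Pdp2 fell (−0.43 ± 0.18). Under LPS, piericidin A raised Pdk2 in WT to 3.74 ± 1.57 CPM (1.27 ± 0.39, edgeR adjusted p = 0.0211).

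Pdp1, the phosphatase that reactivates pyruvate dehydrogenase, had the widest response of the 45 genes to piericidin A alone. It rose from 25.4 ± 3.21 to 88.8 ± 31.9 CPM in WT (1.80 ± 0.21, edgeR adjusted p = 9.09e-08), against 26.7 ± 2.57 and 33.2 ± 3.61 CPM in NDI1. For Pdp1, the difference between the genotypes' effects passed as well (−1.49 ± 0.29, edgeR adjusted p = 0.00274), and without the block no other gene of the 45 did. In the fit with the mouse as a block, 6 of the 45 passed for this difference, where 8.96% of all genes were called. Pdhb, a subunit of pyruvate dehydrogenase, rose with piericidin A alone in WT (0.51 ± 0.12, edgeR adjusted p = 0.00403, but 0.37 with adjusted p = 0.0590 on total counts), and Pdhx, its binding subunit, fell under LPS (−0.36 ± 0.10, edgeR adjusted p = 0.0119).

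Of the 8 genes of citrate and malate export, 1 rose and 2 fell with LPS in WT, where 31.5% of all genes rose and 31.0% fell, and none passed with piericidin A. On total counts none rose and 6 fell with LPS in WT, and 1 fell with piericidin A alone. The fit with the mouse as a block called 3 rises and 3 falls with LPS in WT, 2 falls with piericidin A alone and 1 fall with piericidin A under LPS. For these comparisons the block called 72.0%, 34.2% and 34.5% of all genes. Slc25a1, the mitochondrial citrate carrier, changed by 0.34 ± 0.10 (−0.44 on total counts), Slc25a11, the 2-oxoglutarate carrier, by −0.61 ± 0.08, and Me2, the mitochondrial malic enzyme, by −0.40 ± 0.11. In NDI1, Slc25a10, the dicarboxylate carrier, rose as well (0.65 ± 0.26, but −0.12 on total counts).

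Of the 10 genes of the glutamine and anaplerosis list, 2 rose and 6 fell with LPS in each genotype, where 31.5% of all genes rose and 31.0% (WT) and 31.2% (NDI1) fell. On total counts 1 rose and 8 fell in each. With the mouse as a block 2 rose and 6 fell in each, where 72.0% (WT) and 72.4% (NDI1) of all genes were called. In WT, Slc25a12, a mitochondrial aspartate-glutamate carrier, rose from 32.8 ± 1.81 to 139.8 ± 16.0 CPM (2.09 ± 0.10). Pck2, the mitochondrial phosphoenolpyruvate carboxykinase, fell from 22.3 ± 4.26 to 5.46 ± 0.973 CPM (−2.02 ± 0.24), and Glul, glutamine synthetase, fell as well (−1.52 ± 0.18).

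Under LPS, piericidin A moved several of these genes the other way in WT, in a comparison that shares the LPS libraries. Of the 10 genes, 3 rose and 2 fell there (7.81% and 8.92% of all genes). With the mouse as a block 5 rose and 2 fell, where 34.5% of all genes were called. Pck2 rose to 13.1 ± 4.72 CPM (1.25 ± 0.25, edgeR adjusted p = 0.000601), and Slc25a13 rose as well (0.84 ± 0.25, edgeR adjusted p = 0.0173). Slc25a12 fell to 108 ± 15.8 CPM (−0.37 ± 0.10, edgeR adjusted p = 0.00838). Without LPS, piericidin A raised Got1, the cytosolic aspartate aminotransferase (0.75 ± 0.20, edgeR adjusted p = 0.0102), and Pck2 (0.62 ± 0.22, edgeR adjusted p = 0.0469), and lowered Glul (−0.58 ± 0.18, edgeR adjusted p = 0.0250). Of these calls, that of Pck2 without LPS held in 7 of 17 other settings and not on total counts (adjusted p = 0.144), and the others held in 11 or more and on total counts. Without LPS, 3 of the 10 genes rose and 1 fell with the mouse as a block, where 34.2% of all genes were called.

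Of the genes for the handling of itaconate and 2-hydroxyglutarate, 3 of 5 were tested, since the succinate receptor Sucnr1 and the 2-oxoglutarate receptor Oxgr1 were at 0.139 and 0.0795 CPM or less. D2hgdh, which oxidizes D-2-hydroxyglutarate, fell with LPS in WT (−1.27 ± 0.25) and in NDI1 (−1.75 ± 0.25). Clybl, an enzyme of the breakdown of itaconate, did not pass (0.28 in WT and 0.07 in NDI1, or −0.49 and −0.69 on total counts).

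**Figure D5:**
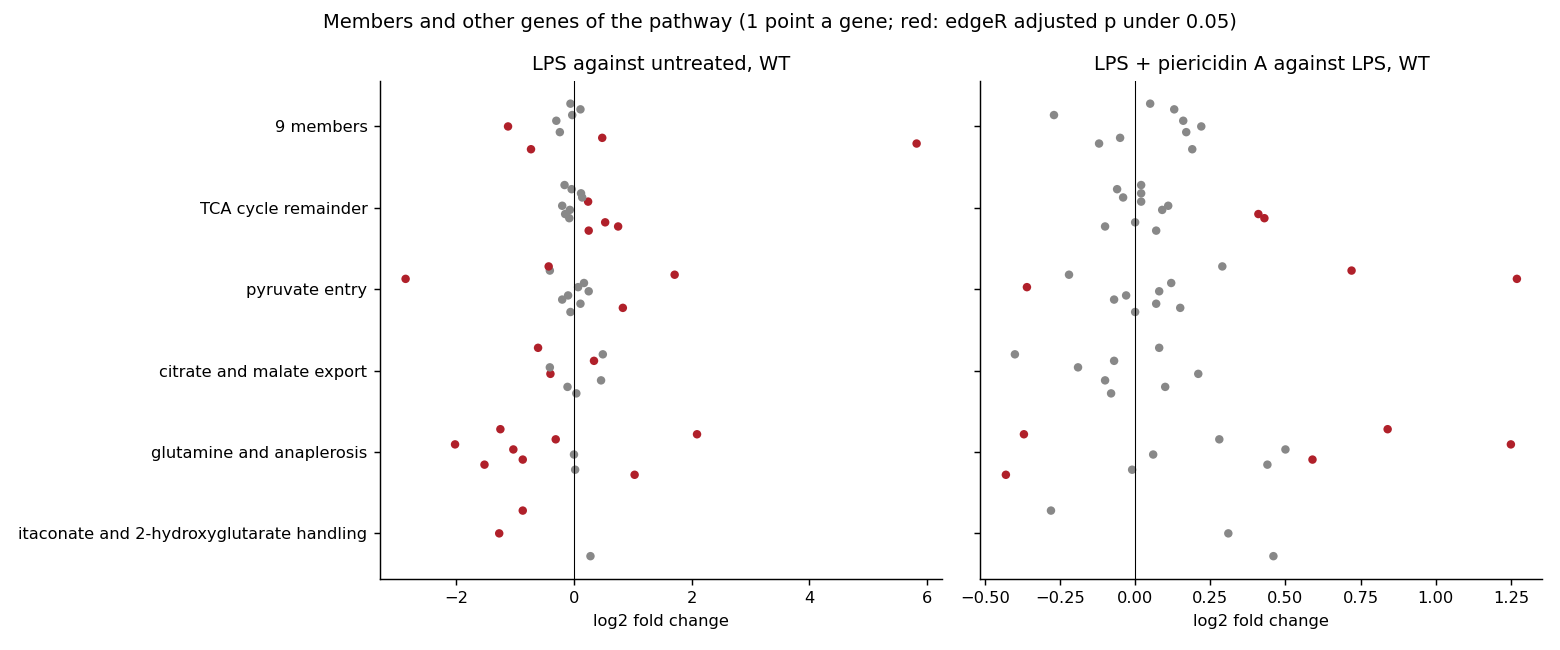
Log2 fold change of the 9 members and of the tested genes of the 5 other lists in WT, with LPS (left) and with piericidin A under LPS (right), 1 point per gene and genes past the edgeR adjusted p of 0.05 in red. With LPS, Acod1 stands apart at 5.82 and the glutamine list spreads from −2.02 to 2.09, and with piericidin A under LPS no member is red while 10 other genes are.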

How the data were processed

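Counts of reads per gene in 40 libraries were analysed. The authors used Trimmomatic for trimming, STAR for alignment to mm10 and HTSeq for counting exonic reads, and deposited the counts without normalization, and the submitters' processing notes name the same tools with bcl2fastq. Neither annotation release nor strandedness of the counting is given in the sources used here, so reads of Fh1 and of the gene overlapping it cannot be told apart with certainty. Of 43430 identifiers, 42462 matched a symbol.

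Groups and mouse numbers came from the labels. In R 4.3.3 with edgeR 4.0.16, filterByExpr kept 11853 genes, TMM factors were used, and 1 mean per group was fitted over all 40 libraries with glmQLFit. Contrasts were tested with glmQLFTest (two-sided, Benjamini-Hochberg over 11853 genes, threshold 0.05), and the SE of a log2 fold change was its size over the square root of F. CPM are TMM-scaled, log2 CPM within mice used a prior count of 2, and RPKM used merged exon lengths of GENCODE M21, since the deposited length column exceeded the gene's span in 1982 genes and was not used. A further column of undetermined reads enters the closing section alone.

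The 4 libraries of a mouse come from 1 animal. Deviations from the group means correlated at a mean r of 0.453 over 60 pairs of the same mouse (0.0995 to 0.769, above 0.1 in 59), against −0.107 over 240 pairs of different mice. Fits with the mouse as a block are therefore given where they change a call of a member, and as counts for other lists in part of the comparisons. Replicates differed by a chi-square per degree of freedom of 9.35 to 77.3. Mice are separate animals, and each treatment has 1 library per mouse.

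Members and lists were chosen with earlier results of these data known. All 9 members are named in every comparison. Of the other lists at most the 2 widest called rises and falls per treatment comparison are named, less those not reported here, and Sdhc was added after its values were seen. The genes of like pattern are the 5 nearest to Acod1 and the 2 nearest to each other member. Alternatives were DESeq2 1.42.0, RLE factors, no filter, at least 10 counts in every library, the compared libraries alone, the block, leaving out each mouse, and, chosen after seeing the data, leaving out mice 449 and 461 and total counts without scaling factors. With totals of 6950748 to 13552070 counts, the least abundant member (Idh3a) still had 91 counts or more per library.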

Additional observations from a re-analysis of the deposited data

Results flagged for a closer look

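In 6 of the 72 groups of 5 member values, 1 mouse stood apart from the other 4 by Dixon's test, and chance alone gives such a call in about 1 in 20 groups. With piericidin A alone, Cs was highest in NDI1 mouse 460 (137 CPM against 118 to 123 CPM), Idh1 highest in NDI1 mouse 461 (303 CPM against 212 to 238 CPM), Idh2 highest in WT mouse 496 (56.7 CPM against 33.9 to 39.8 CPM) and Fh1 lowest in NDI1 mouse 503 (29.2 CPM against 40.3 to 43.4 CPM). Mdh2 was highest in WT mouse 453 both with LPS (112 CPM against 94.9 to 97.6 CPM) and with both agents (136 CPM against 101 to 105 CPM). Fh1 was lowest in mouse 503 under all 4 treatments of the NDI1 mice, at 28.8, 29.2, 22.1 and 21.9 CPM.

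The reads that were left without a library (undetermined, 29104648 counts) held every member. In CPM of their own total, not TMM-scaled, Acod1 was at 2120.2, Cs at 258, Aco1 at 65.2, Idh1 at 126, Idh2 at 127, Idh3a at 68.7, Ogdh at 185, Fh1 at 80.4 and Mdh2 at 244. They carry no genotype or treatment and entered no comparison.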

How the results depend on the processing

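Of 2394 values of single members under the alternatives, 2351 kept their side of the threshold with no reversal of a value past it, 31 newly passed, 8 no longer passed and 4 reversed, counting as reversals the changes of sign in which either value was past the threshold. Of the 2351, 135 changed sign without passing in either fit, 132 of them from a reported log2 value of 0.10 or less in size, such as Idh3a with LPS in WT (−0.03, and 0.07 without mouse 496). The 4 reversals were Cs (−0.30 in WT and −0.27 in NDI1) and Mdh2 (−0.66 and −0.55) with LPS on total counts without scaling factors. On that scale, where the median of all genes lay at −0.78 in WT and −0.77 in NDI1, 9 members were called with LPS in each genotype, against 4 in WT and 5 in NDI1 with TMM. With the mouse as a block, the members called for piericidin A alone in WT went from 1 to 5, and those whose LPS effect piericidin A changed in WT from 0 to 3. The latter count was 1 with DESeq2 and 1 without mice 449 and 461, and NDI1 against WT with piericidin A gave 1 without those mice. Leaving out 1 mouse at a time, the counts ran from 0 to 1 for piericidin A alone in WT (0 without mouse 496). They ran from 0 to 1 for the change of the LPS effect in WT (1 without mouse 461, an NDI1 mouse). For LPS they ran from 4 to 5 in WT and from 4 to 6 in NDI1. The block also brought Idh2 and Fh1 past the test with LPS in WT, and Fh1 and Mdh2 in NDI1, and it changed no other call of a member. The block needs comparisons within mice, so NDI1 against WT has no such value. The causes of the other changes were not tested.

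Counts over all genes that moved by over 1.5 times were those of piericidin A in WT (1759, 4049 with the block, 788 without mouse 496), of piericidin A under LPS in WT (1983, 891 in the compared libraries alone, 4090 with the block, 841 without mouse 520) and of the change of the LPS effect in WT (563, 354 in the compared libraries alone, 2066 with the block, 163 without mouse 496). The differences between genotypes gave 150 genes without LPS (294 with DESeq2, 1062 with the block, 63 without mouse 520, 39 without mice 449 and 461) and 116 under LPS (231 with DESeq2, 1127 with the block, 49 in the compared libraries alone, 72 without a filter, 27 without mouse 520, 255 without mouse 452, 24 without mice 449 and 461). NDI1 against WT gave 924 with piericidin A (477 in the compared libraries alone, 587 without mouse 520, 1390 on total counts) and 1421 with both agents (398 in the compared libraries alone, 746 without mouse 520). Without mice 449 and 461, the counts were 1020 for piericidin A and 1262 under LPS in WT, 258 for the change of the LPS effect, and 448 and 802 for NDI1 against WT. Where a single mouse is named, its removal gave the most extreme count, and removing other single mice, among them 449, 461, 496 and 520, also moved several of these counts by over 1.5 times.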
